A study of Mus musculus with 10 samples.

Results

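The genes described here are 40 genes of the unfolded protein response and the integrated stress response, taken as a named list of gene symbols that was drawn up with earlier results of these data known. Of the 40, 37 were measured under their gene symbol among 19505 genes on the arrays, and Pdia4, Manf and Gdf15 are not analysed here. The RNA was from small intestine organoids of BALB/c mice, three-dimensional epithelial cultures kept here in domes of basement membrane. In 5 cultures, organoids received pegtarazimod at 5 mg/ml, a PEG-linked peptide, together with recombinant murine TNF at 20 ng/ml for 48 h. The other 5 cultures had PEG at 2.625 mM as vehicle with the same TNF for the same time, and whether the PEG amounts of the groups match is not given. Every culture thus held TNF, no culture without TNF is analysed here, and each difference below is one between pegtarazimod and vehicle in TNF-treated organoids at a single time.

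The endoplasmic reticulum (ER) folds proteins that are to be secreted or placed in membranes, and epithelial cells that secrete mucus or antimicrobial peptides carry a heavy folding load. When unfolded proteins build up there, the membrane sensors encoded by Ern1, Atf6 and Eif2ak3 raise the output of chaperones and of the machinery that exports faulty proteins for degradation, and Eif2ak3 also slows translation. The integrated stress response is the wider programme set off by Eif2ak3, by the amino acid sensor Eif2ak4 and by related kinases, in which the transcription factor Atf4 raises genes of amino acid supply, redox balance and, under lasting stress, cell death. Much of this signalling runs through Xbp1 splicing, Atf6 cleavage and Atf4 translation, none of which is measured by a gene-level RNA value.

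Short DNA elements are known from the promoters of many of these genes, and the members were searched for them. The ER stress response element (ERSE) was searched as CCAAT, 9 bases of any kind and CCACG, its relative ERSE-II as ATTGG, 1 base and CCACG, and the C/EBP-ATF response element (CARE) as TGATG, 1 base and AA, each on both strands in the 250 bases before each RefSeq start site of the mouse build GRCm38.p6. Of 36 members with a RefSeq promoter entry, 7 held an ERSE (19.4%), against 35 of 27025 genes (0.13%). An ERSE-II was found in 1 of 36 members (2.78%), against 10 of 27025 genes (0.037%), and a CARE in 5 of 36 members (13.9%), against 1056 of 27025 genes (3.91%). The stretches are shown because the elements are a feature of the members that the arrays do not measure, and most members held none of them. A match is a stretch of letters and not a measured binding site, and the choice of members reflects what is already known of these genes.

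The stretches that hold an ERSE are shown first, each 5′ to 3′ on the strand of its gene, with the fixed bases of the element in capitals (as CGTGG and ATTGG where the element lies on the other strand). They lie at chr2:34772010-34772058 (plus strand) for Hspa5, chr12:17266476-17266524 (plus strand) for Pdia6, chr15:88819505-88819553 (plus strand) for Creld2, chr19:6046517-6046565 (plus strand) for Syvn1 and chr10:86705518-86705671 (minus strand) for Hsp90b1, which holds a pair of them. Dnajc3 and Derl3 held the other matches.
Hspa5: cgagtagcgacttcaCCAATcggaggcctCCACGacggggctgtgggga
Pdia6: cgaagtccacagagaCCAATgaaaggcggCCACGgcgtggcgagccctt
Creld2: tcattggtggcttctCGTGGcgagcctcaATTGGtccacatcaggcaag
Syvn1: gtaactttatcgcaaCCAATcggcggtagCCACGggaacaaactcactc
Hsp90b1: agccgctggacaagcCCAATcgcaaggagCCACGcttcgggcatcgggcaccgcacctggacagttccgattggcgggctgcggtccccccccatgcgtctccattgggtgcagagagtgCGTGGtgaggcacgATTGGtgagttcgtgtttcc

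The stretches with a CARE are shown next, with the fixed bases in capitals in the same way (as TT and CATCA on the other strand). They lie at chr8:94386302-94386402 (plus strand) for Herpud1, which also holds the ERSE-II, chr6:7693210-7693247 (minus strand) for Asns, chr7:126625558-126625595 (minus strand) for Nupr1 and chr2:119351034-119351071 (plus strand) for Chac1, and Vldlr held the other match. Atf3, a gene outside the list that is described further on, is shown with them from chr1:191183421-191183458 (minus strand).
Herpud1: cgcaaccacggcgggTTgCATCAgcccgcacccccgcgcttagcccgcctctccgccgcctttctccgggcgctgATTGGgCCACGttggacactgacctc
Asns: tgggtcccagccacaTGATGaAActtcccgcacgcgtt
Nupr1: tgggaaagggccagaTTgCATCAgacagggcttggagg
Chac1: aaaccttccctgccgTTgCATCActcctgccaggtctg
Atf3: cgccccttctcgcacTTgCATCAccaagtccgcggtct

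The values are log2 expression per gene, as normalised by the authors, so a difference of 1 is a 2-fold change, and levels of different genes are not compared. Array medians lay between 5.60 and 5.66, and all 37 members had group means above the lower quartile of every array (at most 3.90). The 10 epithelial marker genes averaged 10.30 to 10.36 with pegtarazimod and 10.22 to 10.29 with vehicle. Of the 10, 1 rose (Krt19, by 0.33, limma adjusted p = 0.0350, named after its value was seen) and 0 fell. Of 9 mesenchymal markers, which averaged 4.58 to 4.75 with pegtarazimod and 4.54 to 4.73 with vehicle, 1 rose (Vim, by 0.63, limma adjusted p = 0.0240, named after its value was seen). The 9 immune and 6 endothelial markers averaged 4.38 to 4.47 and 3.69 to 3.78 with pegtarazimod and 4.35 to 4.47 and 3.68 to 3.94 with vehicle, and by limma none passed the test (2 of 9 and 1 of 6 at an unadjusted p below 0.05). In both groups, replicates 1 and 2 stood apart from replicates 3 to 5 on the leading component of the variation left after the group means were removed (33.4% of that variance), a split the labels do not explain, and differences within each subset are therefore given. The replicates are called biological, without saying what differed between them, so p-values measure the spread between these samples. Markers of epithelial cell types differed between the groups: 12 enterocyte markers averaged 9.59 to 10.71 with pegtarazimod and 8.73 to 9.32 with vehicle (7 rose, 0 fell), and 8 stem cell markers averaged 7.89 to 8.65 with pegtarazimod and 9.34 to 9.53 with vehicle (0 rose, 6 fell). The 9 measured enteroendocrine markers averaged 7.75 to 8.16 with pegtarazimod and 7.23 to 7.73 with vehicle (2 rose, 0 fell). The part of these cell types in the results below was not tested. In such samples fewer cells of a type and less RNA per cell cannot be told apart.

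No member passed the test between pegtarazimod and vehicle. By limma with Benjamini-Hochberg adjustment over all 19505 genes, 0 of 37 members were called at an adjusted p of 0.05, against 4.89% of all genes (2.50% higher and 2.39% lower), and the smallest adjusted p of a member was 0.114 (Ern1). At an unadjusted limma p below 0.05 there were 8 of 37 members (21.6%), against 19.0% of all genes, a share near the background. All 8 were lower with pegtarazimod, a direction that 9.65% of all genes took at that p. An exact permutation test over the 252 splits of the arrays gave 8 of 37 members an unadjusted p below 0.05, against 17.4% of all genes. These were not all the same members. Atf4 and Psat1 were not among them (exact permutation p = 0.0556 and 0.0873). Hspa5 and Hsp90b1 were, with unadjusted limma p of 0.0948 and 0.0520. The groups overlapped for all 37 members, whereas 6.71% of all genes had groups that did not overlap.

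The differences were also small, and the arrays bound them. The member differences ran from -0.54 (Psat1) to 0.27 (Atf5), with a median of -0.08 against 0.00 over all genes, and their median size was 0.115 against 0.114 over all genes. For 32 of 37 members (86.5%) the 95% interval of the difference lay within a 1.5-fold change in either direction, against 86.4% of all genes, and for all 37 it lay within a 2-fold change, against 97.1% of all genes. Each interval covers its own gene only. A difference below 0 was found in 23 of 37 members (62.2%), against 49.3% of all genes.

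**Figure D1:**
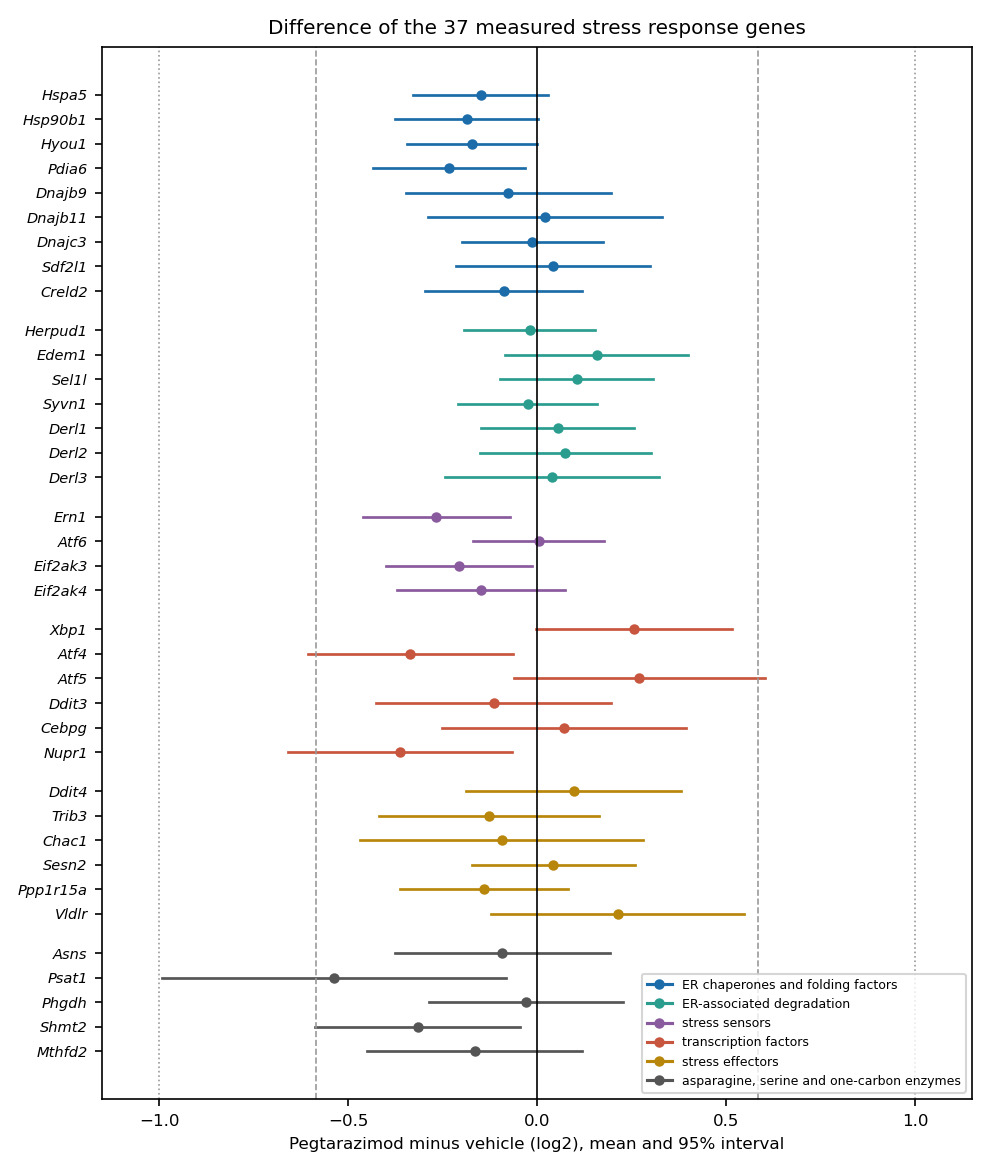
Difference between pegtarazimod and vehicle (log2, horizontal axis) of the 37 measured members, grouped by role, with its 95% interval from limma (n = 5 arrays per group). Dashed lines mark a 1.5-fold and dotted lines a 2-fold change; no interval reaches 2-fold, and the lowest point is Psat1 at -0.54.

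The ER chaperones and folding factors had 9 of 11 members measured, with a median difference of -0.09, and none passed the test. Hspa5 encodes BiP, the main chaperone of the ER lumen, which also holds the stress sensors inactive. Hspa5 measured 11.43, 11.62, 11.55, 11.56 and 11.36 on the pegtarazimod arrays and 11.68, 11.69, 11.61, 11.58 and 11.71 on the vehicle arrays. The pegtarazimod values were mostly the lower ones, and the groups overlapped through pegtarazimod 2, which exceeded vehicle 3 and 4. The difference was -0.15 ± 0.08 (SE; 95% interval -0.33 to 0.03; limma adjusted p = 0.372), which is at most a 1.26-fold change within that interval.

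Hsp90b1, the Hsp90 chaperone of the ER, averaged 10.73 ± 0.09 with pegtarazimod and 10.92 ± 0.11 with vehicle (SD, n = 5 each), a difference of -0.19 with a limma adjusted p of 0.270. Hyou1, an exchange factor and partner of BiP, averaged 10.21 ± 0.09 with pegtarazimod and 10.39 ± 0.04 with vehicle (limma adjusted p = 0.259). Pdia6, a protein disulfide isomerase, averaged 9.88 ± 0.12 with pegtarazimod and 10.12 ± 0.13 with vehicle (limma adjusted p = 0.188). These 4 genes, grouped after their values were seen, had the lowest differences of the 9 measured chaperone genes, at -0.23 to -0.15. Each of the 4 was below 0 within replicates 1 and 2 and within replicates 3 to 5, against 30.7% of all genes. An exact permutation p below 0.05 with a lower value was found in 8.73% of all genes. Because the 4 were picked by their values on these same arrays, the subsets and the permutation test are descriptive for them. The exact permutation p was 0.0238 for Hspa5, 0.0317 for Hsp90b1, 0.0159 for Hyou1 and 0.0159 for Pdia6, unadjusted, where the smallest p that 5 against 5 arrays allow is 0.00794.

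The remaining chaperone genes lay closer to 0. The BiP co-chaperone genes Dnajb9, Dnajb11 and Dnajc3 differed by -0.08, 0.02 and -0.01. Sdf2l1, a BiP-associated folding factor, differed by 0.04 and Creld2, a secreted product of ER stress, by -0.09. Sdf2l1 was more spread with pegtarazimod than with vehicle, at 7.08 ± 0.28 and 7.04 ± 0.05 (SD, n = 5 each). Its difference was -0.19 within replicates 1 and 2 and 0.19 within replicates 3 to 5. Dnajb9, Dnajb11 and Dnajc3 also had opposite signs in the subsets, whereas Creld2 was below 0 in both.

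All 7 genes of ER-associated degradation were measured, and none passed the test. At an unadjusted limma p below 0.05 there were 0 of 7, against 19.0% of all genes. Their differences ran from -0.03 to 0.16, with a median of 0.05, and 5 of 7 lay above 0. Herpud1, which organises the retrotranslocation complex, averaged 9.77 ± 0.07 with pegtarazimod and 9.79 ± 0.08 with vehicle (SD, n = 5 each; difference -0.02, 95% interval -0.19 to 0.15). Edem1, which extracts misfolded glycoproteins from the folding cycle, had the largest difference of the group at 0.16 ± 0.11 (SE; limma adjusted p = 0.512). Sel1l and Syvn1, the adaptor and the ubiquitin ligase of the same complex, differed by 0.10 and -0.03, and the derlin genes Derl1, Derl2 and Derl3 by 0.05, 0.07 and 0.04.

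Among the sensors, Ern1 had the smallest p of the whole list. Ern1 encodes IRE1 alpha, the kinase and nuclease that splices Xbp1 mRNA. It measured 8.67, 8.44, 8.25, 8.42 and 8.44 on the pegtarazimod arrays and 8.72, 8.78, 8.71, 8.73 and 8.62 on the vehicle arrays. Only pegtarazimod 1 reached into the vehicle range, above vehicle 5. The difference was -0.27 ± 0.09 (SE; 95% interval -0.46 to -0.07; limma adjusted p = 0.114), with -0.19 within replicates 1 and 2 and -0.32 within replicates 3 to 5.

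Eif2ak3 encodes PERK, the ER kinase of the translation initiation factor eIF2. Eif2ak3 measured 8.62, 8.60, 8.66, 8.65 and 8.72 on the pegtarazimod arrays and 8.61, 8.85, 8.99, 8.92 and 8.92 on the vehicle arrays. The pegtarazimod values were tight, and vehicle 1 alone fell among them. The difference was -0.21 ± 0.09 (SE; limma adjusted p = 0.227). Atf6, the sensor that is cleaved to a transcription factor, averaged 8.35 ± 0.03 with pegtarazimod and 8.34 ± 0.10 with vehicle (SD, n = 5 each; difference 0.00, 95% interval -0.17 to 0.18). Eif2ak4, which encodes the amino acid sensor kinase of the integrated stress response, differed by -0.15 (limma adjusted p = 0.4996).

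The transcription factors went in both directions and none passed the test. Xbp1, the transcription factor made active by Ern1, measured 10.24, 10.46, 10.18, 9.99 and 10.21 on the pegtarazimod arrays and 10.02, 10.26, 9.75, 9.70 and 10.05 on the vehicle arrays. The groups overlapped widely, and the array values of replicate 2 were the highest in each group. The difference was 0.26 ± 0.12 (SE; 95% interval -0.0027 to 0.51; limma adjusted p = 0.270). The gene-level value counts spliced and unspliced Xbp1 together.

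Atf4, the central transcription factor of the integrated stress response, measured 9.41, 9.65, 9.26, 9.29 and 9.31 on the pegtarazimod arrays and 9.95, 10.004, 9.74, 9.47 and 9.44 on the vehicle arrays. Replicates 1 and 2 were the highest in both groups, and pegtarazimod 2 exceeded vehicle 4 and 5. The difference was -0.34 ± 0.13 (SE; limma adjusted p = 0.160). The exact permutation p was 0.0556, unadjusted. With replicates 1 and 2 against 3 to 5 as a block, the difference was -0.34 ± 0.09 (SE) and passed the test (limma adjusted p = 0.0345). Over 23 alternatives the limma adjusted p ranged from 0.0345 to 0.348. The block fit called 9.33% of all genes, against 4.89% without the block. The block was read from these same arrays, so its p-value is descriptive. The difference was -0.45 within replicates 1 and 2 and -0.26 within replicates 3 to 5, and neither passed.

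Ddit3, the transcription factor CHOP of lasting ER stress, measured 6.64, 6.95, 6.20, 6.51 and 6.68 on the pegtarazimod arrays and 6.95, 6.96, 6.62, 6.65 and 6.37 on the vehicle arrays. The ranges coincided over most of their width, with a difference of -0.12 (95% interval -0.43 to 0.20; limma adjusted p = 0.743). Its other probe set differed by -0.16. Nupr1, a stress-induced chromatin regulator, averaged 8.97 ± 0.21 with pegtarazimod and 9.33 ± 0.28 with vehicle (SD, n = 5 each; difference -0.36, limma adjusted p = 0.163). Atf5, a relative of Atf4 that acts in mitochondrial stress, differed by 0.27 and Cebpg, a binding partner of Atf4, by 0.07.

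The 6 measured stress effectors differed by -0.14 to 0.21, and none passed the test, with 0 of 6 at an unadjusted limma p below 0.05, against 19.0% of all genes. Trib3, a pseudokinase that restrains Atf4 output, averaged 6.55 ± 0.23 with pegtarazimod and 6.68 ± 0.25 with vehicle (SD, n = 5 each; limma adjusted p = 0.698). Ppp1r15a, which encodes the phosphatase subunit that ends the translation block, averaged 5.30 ± 0.14 with pegtarazimod and 5.44 ± 0.17 with vehicle (limma adjusted p = 0.532). Ddit4 and Sesn2, inhibitors of mTORC1 signalling, differed by 0.10 and 0.04, and Vldlr, a lipoprotein receptor, by 0.21. Chac1, a glutathione-degrading enzyme, differed by -0.09 ± 0.17 (SE), with an uneven pattern over arrays that is given below.

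The 5 enzymes of asparagine, serine and folate metabolism are known targets of Atf4. All 5 differences lay below 0, with a median of -0.17, whereas 49.3% of all genes lay below 0. Within replicates 1 and 2, 5 of 5 lay below 0 (median -0.51), and within replicates 3 to 5, 2 of 5 (median 0.04). Psat1, an enzyme of serine synthesis, measured 8.38, 9.08, 9.71, 9.84 and 9.28 on the pegtarazimod arrays and 9.82, 9.84, 9.94, 9.69 and 9.67 on the vehicle arrays. Pegtarazimod 1, 2 and 5 lay below every vehicle array, with replicate 1 lowest, whereas pegtarazimod 3 and 4 lay within the vehicle range. The difference was -0.54 ± 0.21 (SE; 95% interval -0.99 to -0.08; limma adjusted p = 0.181).

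Shmt2, which moves one-carbon units from serine to folate in mitochondria, averaged 8.34 ± 0.27 with pegtarazimod and 8.65 ± 0.14 with vehicle (SD, n = 5 each; difference -0.32, limma adjusted p = 0.187). Asns, the asparagine synthetase, averaged 10.19 ± 0.28 with pegtarazimod and 10.29 ± 0.17 with vehicle (difference -0.09, limma adjusted p = 0.782). Mthfd2, a mitochondrial folate enzyme, differed by -0.17 and Phgdh, the first enzyme of serine synthesis, by -0.03. In each of the 5 enzymes pegtarazimod 1 was the lowest array of all.

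**Figure D2:**
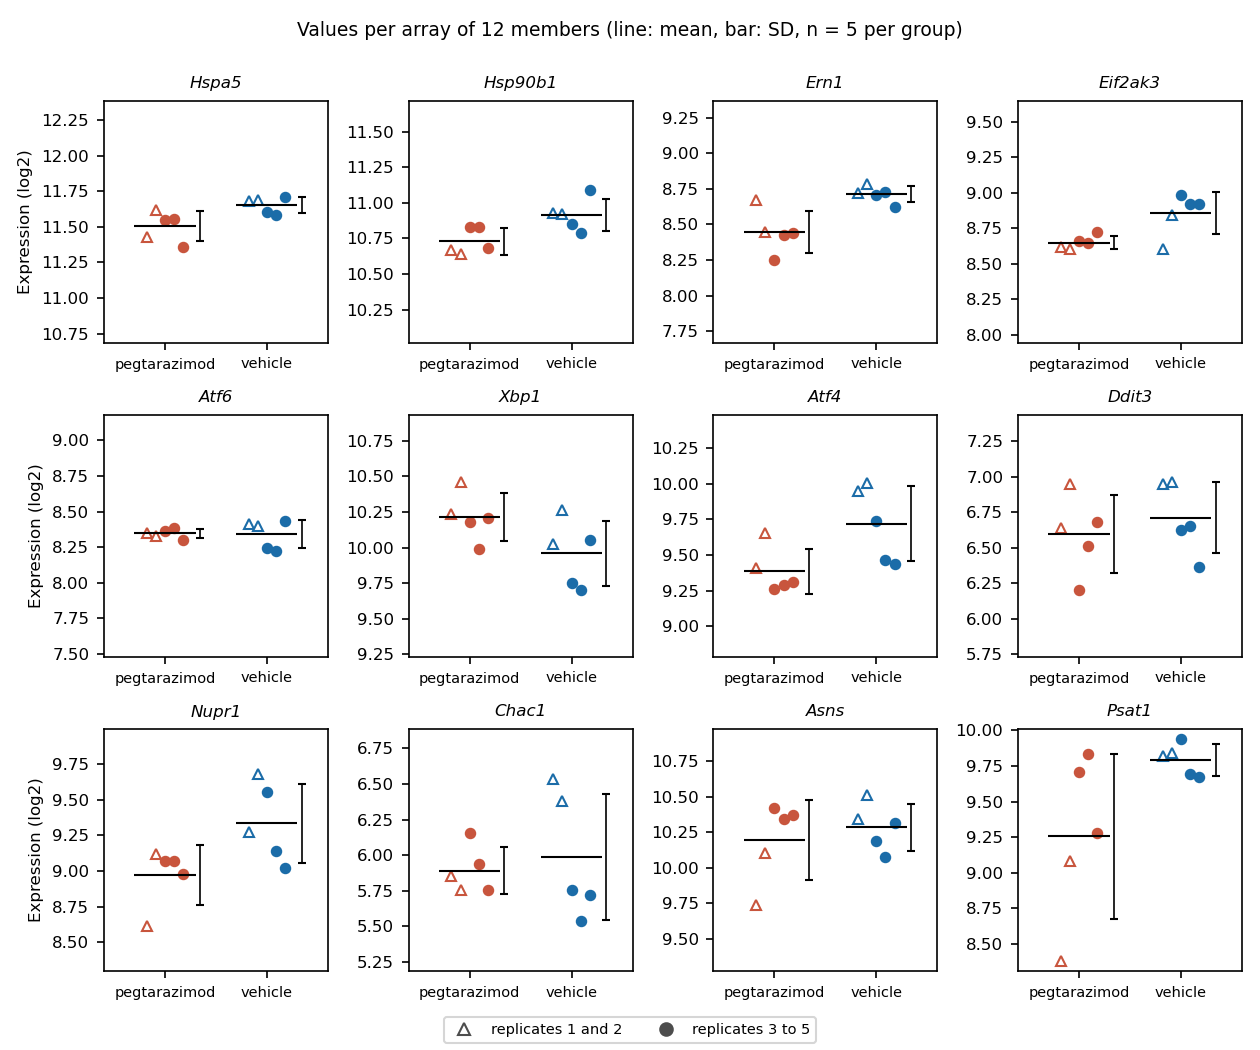
Expression (log2, vertical axis) of 12 members on each array, with pegtarazimod left and vehicle right, open triangles for replicates 1 and 2, filled circles for replicates 3 to 5, a line at the mean and a bar for the SD (n = 5 per group). All panels span the same number of log2 units; the groups overlap in every panel, and in Psat1 both open pegtarazimod triangles lie below all other arrays.

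The difference was larger in size within replicates 1 and 2 than within replicates 3 to 5 for 24 of 37 members (64.9%). Over all genes this held for 58.4%, a share near that of the members. Within replicates 1 and 2, 3 of 37 members (8.11%) passed the test, all lower with pegtarazimod, against 6.30% of all genes. The comparison within replicates 1 and 2 had 2 arrays a group, at a spread pooled over all arrays. Psat1 differed by -1.10 there (limma adjusted p = 0.00989, range 0.00989 to 0.756 over its 23 alternatives), Shmt2 by -0.59 (0.0366, range 0.0366 to 0.695) and Chac1 by -0.65 (0.0235, range 0.0235 to 0.993). Within replicates 3 to 5, 0 of 37 passed at a spread pooled over all arrays, against 3.34% of all genes, with Psat1 at -0.16, Shmt2 at -0.13 and Chac1 at 0.28. Chac1 measured 5.85, 5.76, 6.15, 5.94 and 5.76 on the pegtarazimod arrays and 6.53, 6.38, 5.76, 5.54 and 5.72 on the vehicle arrays, so vehicle 1 and 2 alone stood high.

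The difference between the subsets was tested as an interaction, which 0 of 37 members passed after adjustment (limma, smallest adjusted p = 0.212, for Chac1), against 0.0256% of all genes. Because the split was read from these same arrays, p-values of the interaction and within the subsets are descriptive. At an unadjusted interaction p below 0.05 there were 7 of 37 members (18.9%), against 7.65% of all genes. They were Chac1, Atf5 and all 5 metabolic enzymes, Asns, Psat1, Phgdh, Shmt2 and Mthfd2. The enzymes' differences ran from -1.10 to -0.32 within replicates 1 and 2 and from -0.16 to 0.18 within replicates 3 to 5. Asns differed by -0.51 in the first subset and by 0.18 in the second (limma interaction adjusted p = 0.372), and Psat1 by -1.10 and -0.16 (0.398). The difference was below 0 in both subsets for 15 of 37 members (40.5%), against 30.7% of all genes. Per-array values of Psat1 and Chac1 and the groups of members in these sentences were picked out after their values were seen.

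**Figure D3:**
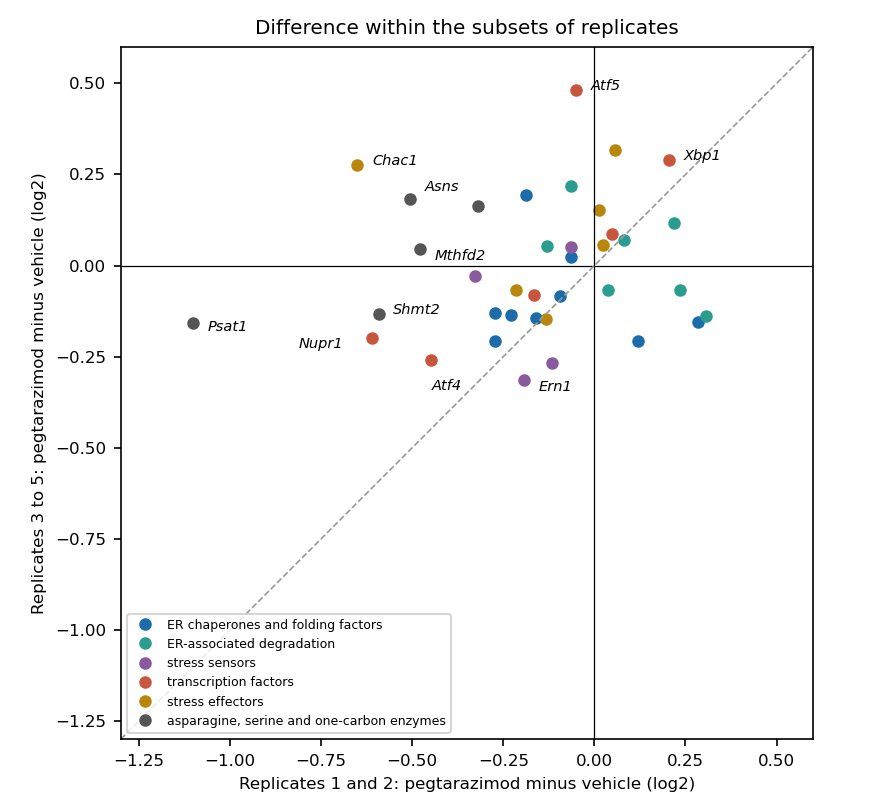
Difference between pegtarazimod and vehicle (log2) of each of the 37 members within replicates 1 and 2 (horizontal axis) and within replicates 3 to 5 (vertical axis), coloured by role, with the line of equal differences dashed. The 5 metabolic enzymes (grey) lie left, at -1.10 to -0.32, and near 0 vertically, while Xbp1 and Ern1 keep like values on both axes.

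Levels also moved with the subset in both treatments. Of the 6 transcription factors, 5 were higher in replicates 1 and 2 than in replicates 3 to 5 both with pegtarazimod and with vehicle, as were 5 of the 6 stress effectors. The same held for 2 of 9 chaperone genes, 1 of 7 degradation genes, 1 of 4 sensors and 0 of 5 metabolic enzymes. Over all members this held for 14 of 37 (37.8%), against 28.3% of all genes. Cebpg was higher there by 0.38 with pegtarazimod and by 0.42 with vehicle, Trib3 by 0.29 and 0.44, Vldlr by 0.34 and 0.60, and Ddit3 by 0.33 and 0.41. In size, these gaps exceeded the treatment differences of the same genes, which are named here with their gaps already seen. The subsets were recognised from the arrays themselves, so the gaps are given without a test.

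A wider list of 116 genes of the same pathways, of which 109 were measured, held some genes that passed the test. By limma, 9 of 109 (8.26%) were called over all genes, 4 higher and 5 lower, against 4.89% of all genes, and the median difference was -0.02 against 0.00 over all genes. Of 20 other ER chaperones and folding factors 1 rose, of 12 other degradation genes 1 rose, and of 16 genes of ER translocation and 19 other sensors and regulators none passed. Of 15 other genes linked to Atf4, 2 rose and 3 fell, of 9 amino acid transporters 2 fell, and of 18 cytosolic aminoacyl-tRNA synthetases none passed. At an unadjusted limma p below 0.05 the lists without a call held 1 of 16 (6.25%), 1 of 19 (5.26%) and 3 of 18 genes (16.7%), against 19.0% of all genes.

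Atf3, a stress-induced repressor and activator downstream of Atf4 and of inflammatory signals, whose promoter stretch stands above, measured 7.47, 7.43, 7.13, 7.29 and 7.39 on the pegtarazimod arrays and 7.92, 7.63, 8.06, 7.94 and 7.97 on the vehicle arrays. Every pegtarazimod value lay below every vehicle value, and Atf3 fell by 0.56 on the log2 scale (SE 0.10; limma adjusted p = 0.00713). Within replicates 1 and 2 the difference was -0.32 and did not pass (limma adjusted p = 0.254, range 0.00285 to 0.254 over 23 alternatives). The amino acid transporter genes Slc1a4 and Slc7a5 were 1.64-fold and 1.82-fold lower without overlap of the groups (limma adjusted p = 0.00881 and 0.0275). Slc1a4 differed by -1.08 within replicates 1 and 2 and by -0.46 within replicates 3 to 5, and Slc7a5 by -1.25 and -0.61, and neither passed within replicates 3 to 5 (limma adjusted p = 0.114 and 0.0722, with ranges over 23 alternatives of 0.00283 to 0.134 and 0.00205 to 0.0770). Slc7a5 measured 8.51, 9.07, 9.84, 9.79 and 9.27 on the pegtarazimod arrays and 9.99, 10.10, 10.29, 10.28 and 10.15 on the vehicle arrays, with pegtarazimod 1 and 2 lowest. Leaving out 1 array ended the Slc7a5 call in 5 of 10 cases, most clearly without vehicle 3 (adjusted p = 0.0770). Slc3a2, the heavy chain that partners Slc7a5, differed by 0.01 (95% interval -0.18 to 0.20), and Slc7a11, the cystine transporter, by -0.35 (limma adjusted p = 0.591).

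Sesn3, a relative of Sesn2 that is also known as a FOXO target, measured 6.79, 6.97, 7.60, 7.88 and 7.43 on the pegtarazimod arrays and 8.25, 7.90, 8.86, 8.89 and 9.12 on the vehicle arrays. The groups did not overlap, replicates 1 and 2 were lowest in each, and Sesn3 was 2.41-fold lower (limma adjusted p = 0.00864), with -1.20 within replicates 1 and 2 and -1.32 within replicates 3 to 5. Stc2, a secreted glycoprotein induced by ER stress, was 1.61-fold lower (limma adjusted p = 0.0349), with -1.20 and -0.35 in the subsets, and 7 of the 10 fits with 1 array fewer ended its call (adjusted p up to 0.0928, without pegtarazimod 2). Cth, an enzyme of cysteine synthesis, was 1.56-fold higher (limma adjusted p = 0.0366) and Got1, the cytosolic aspartate aminotransferase, 1.24-fold higher (0.0308). Both calls ended in 6 of the 10 fits with 1 array fewer, with adjusted p up to 0.104 for Cth and 0.0937 for Got1, both without vehicle 3.

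Of the called genes of ER folding and degradation, Selenos, a membrane selenoprotein of the retrotranslocation complex, averaged 7.56 ± 0.18 with pegtarazimod and 7.05 ± 0.09 with vehicle (SD, n = 5 each; limma adjusted p = 0.0102), with groups that did not overlap. Agr2, a disulfide isomerase that folds mucins in goblet cells, measured 7.89, 7.73, 8.50, 8.51 and 8.52 on the pegtarazimod arrays and 7.86, 7.36, 7.50, 7.17 and 7.61 on the vehicle arrays. Pegtarazimod 3 to 5 stood above all other arrays, and Agr2 was 1.66-fold higher (limma adjusted p = 0.0282), with 0.20 within replicates 1 and 2 and 1.08 within replicates 3 to 5. The call ended in 6 of the 10 fits with 1 array fewer, most clearly without vehicle 4 (adjusted p = 0.0774). Of 10 goblet cell markers, Agr2 among them, 6 rose and the list averaged 7.82 to 8.09 with pegtarazimod and 7.11 to 7.40 with vehicle, whereas of 12 Paneth cell markers 2 rose and 7 fell and that list averaged 7.44 to 8.41 with pegtarazimod and 8.23 to 8.98 with vehicle. The Paneth cell markers Defa3 and Defa17 had identical values on every array, so 1 measurement counts as 2 of the 7 that fell. The part of these cell types in the Agr2 result was not tested. Ern2, the epithelial relative of Ern1 found in mucus-secreting cells, differed by 0.05 (95% interval -0.18 to 0.27).

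Other well-known ER proteins did not pass the test. Calr and Canx, the lectin chaperones calreticulin and calnexin, differed by -0.08 (95% interval -0.25 to 0.09) and by -0.02 (-0.22 to 0.18). P4hb, the archetypal disulfide isomerase, differed by 0.32 (limma adjusted p = 0.227), with 0.53 within replicates 1 and 2 and 0.17 within replicates 3 to 5. Cebpb, a stress-responsive transcription factor, differed by -0.02 (limma adjusted p = 0.944).

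**Figure D4:**
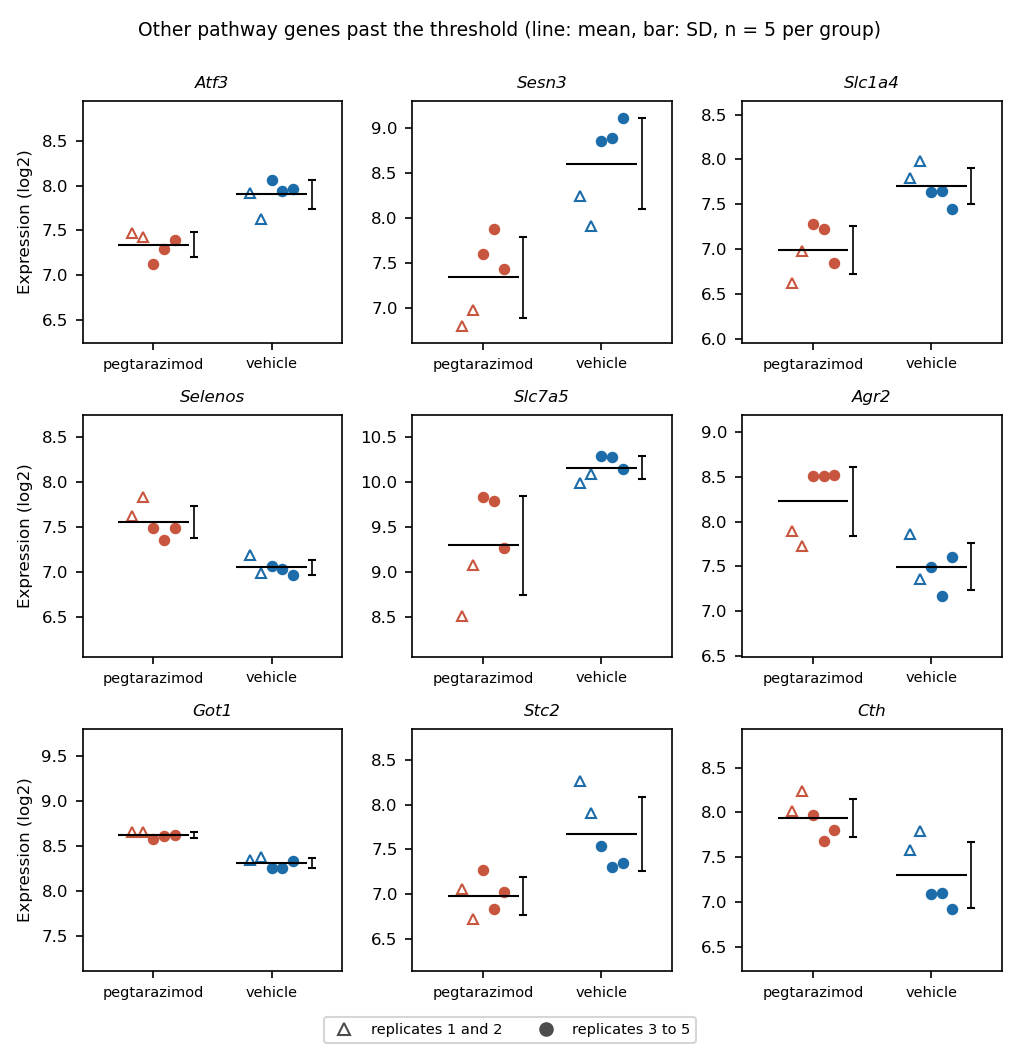
Expression (log2, vertical axis) on each array of the 9 genes of the wider list that passed the limma test, with pegtarazimod left and vehicle right, open triangles for replicates 1 and 2, filled circles for replicates 3 to 5, a line at the mean and a bar for the SD (n = 5 per group). The groups do not overlap for Atf3, Sesn3, Slc1a4, Selenos, Slc7a5, Got1 and Stc2, and they overlap for Agr2 and Cth.

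Members with and without the promoter elements shown above had like medians. The 7 members with an ERSE had a median difference of -0.09 (6 of 7 below 0), and the 27 measured members without one had -0.08 (16 of 27 below 0). The 5 members with a CARE had a median difference of -0.09 (4 of 5 below 0), and the 29 measured members without one had -0.08 (18 of 29 below 0). These medians are descriptions without a test.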

How the data were processed

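RNA from 5 pegtarazimod and 5 vehicle cultures was measured on 10 single-colour arrays, and groups and replicate numbers came from the sample titles. For each probe set the authors deposited a log2 expression value, made with oligo and RMA (background correction, quantile normalisation between arrays, summary over probes), per the submitters' processing notes, with versions not given in the sources used here. Quantile normalisation would hide a change common to most genes. Of 22203 probe sets, 19572 had 1 symbol, 0 had several and 2631 were unnamed here. Each of the 19572 was found in a GRCm38.p6 gene table. They gave 19505 genes, and for 55 genes with more than 1 probe set the brightest on average was taken. No detection calls were used.

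Differences are pegtarazimod minus vehicle, from lmFit and eBayes of limma 3.58.1 (R 4.3.3) without covariates, with Benjamini-Hochberg adjustment over all 19505 genes and a threshold of 0.05. Exact permutation tests were two-sided and unadjusted. The fits were tested on simulated data with independent noise on each array. The simulation held no split between subsets of replicates. The members and lists were chosen with earlier results of these data known. All members may be named, and of other pathway genes those past the threshold, at most 10, and a fixed few besides. The number of arrays limits the precision. Alternatives were other normalisations, filters on dim genes, variance models, blocks, subsets of replicates, probe set rules and leaving out each array. Promoters came from RefSeq. Figures used Python 3.11.15 and matplotlib 3.10.9.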

Additional observations from a re-analysis of the deposited data

Results flagged for a closer look

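Among 46 genes (the 37 members and the 9 called genes of the wider list), 1 array stood far from the other 4 of its group in 5 of 92 combinations of gene and group, and chance gives about 1 in 20. Pegtarazimod 1 was low for Pdia6 at 9.67, with the other pegtarazimod arrays at 9.91 to 9.99, and low for Nupr1 at 8.61, with the others at 8.98 to 9.12. The same array was high for Trib3 at 6.95, with the others at 6.36 to 6.53. Vehicle 2 was low for Dnajb11 at 6.29, with the others at 6.90 to 7.12, and vehicle 1 was low for Derl1 at 8.18, with the others at 8.37 to 8.39.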

How the results depend on the processing

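No member was called higher under any of 23 alternatives, and members called lower numbered 0 in 21 of them, including all 10 that left out 1 array. With replicates 1 and 2 against 3 to 5 as a block, 1 member was called lower (Atf4). Within replicates 1 and 2, at a spread pooled over all arrays, 3 were (Psat1, Shmt2, Chac1). Both settings use a split read from these same arrays. The number of all genes called, 954, became 1606 with a replicate block, 1820 with the block of subsets and 537 in replicates 3 to 5 alone at their own spread (an alternative chosen after seeing the data), and 437 (without vehicle 3) to 1245 on leaving out 1 array. Calls in the wider list, 9, became 16 with the block of subsets, 14 within replicates 1 and 2, 4 within replicates 3 to 5 and 5 in replicates 3 to 5 at their own spread, and 4 (without vehicle 3) to 10 on leaving out 1 array. The cause of these shifts was not tested. Same-numbered arrays correlated at 0.0993 to 0.310 over genes in their deviations from the group means. Pegtarazimod 1 to 4 each correlated best with the vehicle array of the same number, and pegtarazimod 5 with vehicle 3 (0.152 against 0.130). Whether equal numbers mark pairs is not given, so the main test took no pairs. The replicate block, which treats equal numbers as pairs, called no member. Of 850 values of members under the alternatives, 50 had the other sign, in 18 of 37 members, and none of those 50 values was called. With 5 arrays a group, members' standard errors of 0.08 to 0.21 limit what can be seen.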
